A study of Bos grunniens with 6 samples.

Results

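The m6A peaks described here lie in the last exon of transcripts with at least 3 exons. A peak was counted when its annotation placed it in exon k of n with k equal to n, with n of at least 3 and a width of at most 50000 bp. There were 1176 such peaks among the 16186 peaks of the list (7.27%, 95% Wilson interval 6.88% to 7.68%), and they were assigned to 988 genes, of which 968 carry a gene symbol. In MeRIP-seq, RNA fragments are precipitated with an m6A antibody (IP) and set against RNA that was not precipitated (input). The 6 libraries came from testes removed by castration from 3 cattle-yaks, named TES5, TES6 and TES7 and each 5 years old, with an IP and an input library per animal. The cattle-yak is the hybrid of cattle and yak, and its males are sterile. There was no parental species, other tissue or other age in the series as used here, so nothing below compares conditions. The peaks of the 3 animals form 1 pooled list without scores. Variation between animals is therefore known for gene expression only, and each interval on a share of peaks is for counting error alone.

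N6-methyladenosine is written onto messenger RNA by the METTL3 and METTL14 complex, with WTAP and VIRMA among its partners, removed by FTO and ALKBH5, and read by YTH domain and IGF2BP proteins. In mammalian messenger RNA it is known to gather near the stop codon and in long internal and last exons, while exon junctions close by keep it low. The last exon differs from the others in that no junction follows it, and it usually holds the stop codon and the 3' UTR. In C2H2 zinc finger genes, which encode the largest family of mammalian transcription factors, the last exon as a rule encodes the array of fingers that contacts DNA.

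The label of a last exon was set by the annotation and has limits that touch each result. In 1102 of the 1176 peaks (93.7%) the exon belonged to the transcript listed for the peak, in 74 it belonged to another transcript, and in 39 of those to another gene. For 7 peaks the exon's gene had no identifier, and 7 peaks did not overlap the listed transcript. The annotation gives each peak 1 class, and peaks placed in a 3' UTR form a class of their own (3333 peaks of at most 50000 bp), so that a last-exon peak here is one that was not labelled as 3' UTR. By its default order, the annotation program takes a 3' UTR before an exon. The transcripts had a median of 7 exons (quartiles 4 and 12, highest 129). The plus strand held 54.9% of last-exon peaks (52.1% to 57.8%) and 49.8% of the other exon peaks of such transcripts (48.7% to 50.8%).

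Last-exon peaks were narrow. Their width, the span on the genome with any introns, had its median at 296 bp, its quartiles at 198 and 499 bp, and its lowest value at 137 bp. At most 1000 bp wide were 90.6% of them (88.8% to 92.2%), against 44.0% of first-exon peaks, 34.0% of internal-exon peaks and 68.0% of peaks of the 3' UTR class. The differences were 46.6 percentage points from first exons (95% Newcombe interval 43.3 to 49.8), 56.7 from internal exons (54.6 to 58.6) and 22.6 from the 3' UTR class (20.2 to 24.8). The median width was 1496 bp in first exons, 2146.5 bp in internal exons and 444 bp in the 3' UTR class. A last exon has an intron on 1 side only, and a peak that spans several exons received the label of 1 of them, so width and exon label were not measured independently. Among the last-exon peaks, 409 were at most 200 bp wide, 240 were over 200 and up to 300 bp, 417 over 300 and up to 1000 bp, 81 over 1000 and up to 5000 bp, and 29 wider.

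**Figure D1:**
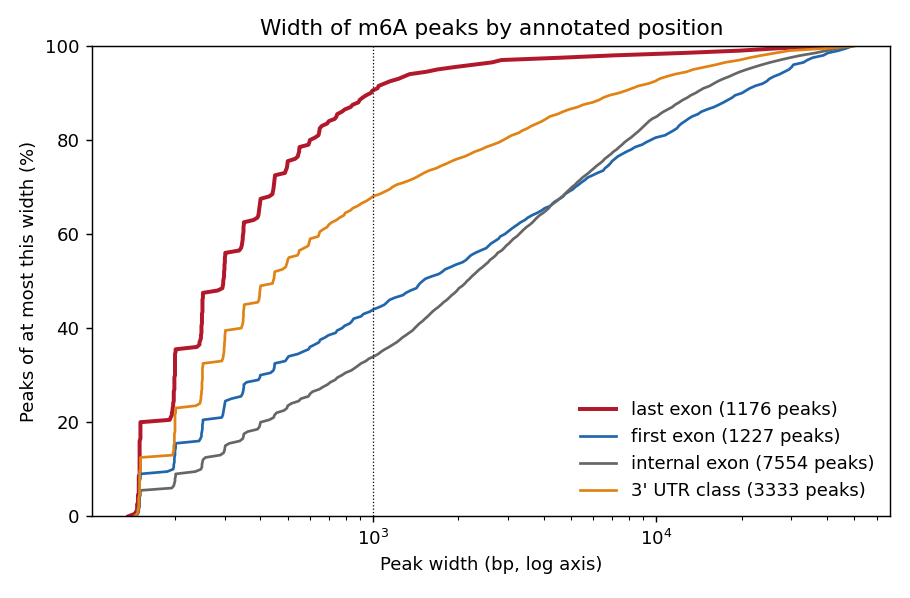
Cumulative share of m6A peaks (percent, vertical axis) by peak width (bp, log axis) for last-exon, first-exon, internal-exon and 3' UTR class peaks of at most 50000 bp. The dotted line marks 1000 bp, where the last-exon curve stands at 90.6% and the internal-exon curve at 34.0%.

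At the wide end, the limit of 50000 bp left out 1 peak, at *RASSF10*, of 120198 bp. Inside it, the peak at *TMEM53* measured 39999 bp and that at *TASP1*, the protease that cleaves MLL proteins, 39004 bp. They ran 36223 and 14271 bp beyond the annotated end of their transcripts, so most of the span at *TMEM53* lies outside the gene model. Input FPKM, fragments per kilobase of transcript scaled to library size, were low at *TASP1* (0.776, 0.776 and 0.940 in TES5, TES6 and TES7) and higher at *TMEM53* (5.72, 5.38 and 3.51). Of the 110 last-exon peaks over 1000 bp, 42 (38.2%) passed the last base of the listed transcript. Of 1066 narrower peaks 23 did (2.16%), a difference of 36.0 points (27.4 to 45.4). The width includes any part past the last base, so this difference was partly set by how width is measured.

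Most last-exon peaks came close to the annotated end of the transcript. A last exon lies at that end, so the choice of these peaks largely set their closeness. Exon lengths were not used, so no distance to be expected within a last exon can be given. The distance from the downstream edge of the peak to the last annotated base had a median of 100 bp over all 1176 peaks. In the 1102 peaks whose exon was that of the listed transcript the median was 99 bp (quartiles 0 and 593.75 bp) and the largest distance 6169 bp. Exactly at the last base ended 284 peaks (24.1%), and 65 ended beyond it. Together 29.7% of last-exon peaks (27.1% to 32.4%) were at or beyond the end, against 15.96% of the 3' UTR class, a difference of 13.7 points (10.9 to 16.6), and in the 3' UTR class the median distance was 446 bp. By the default order, a peak that met an annotated 3' UTR would be labelled 3' UTR and not last exon. The contrast between these classes therefore cannot be separated from the labelling. A further 243 peaks ended 1 to 100 bp before the last base, 344 ended over 100 and up to 1000 bp before it, and 240 farther upstream.

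**Figure D2:**
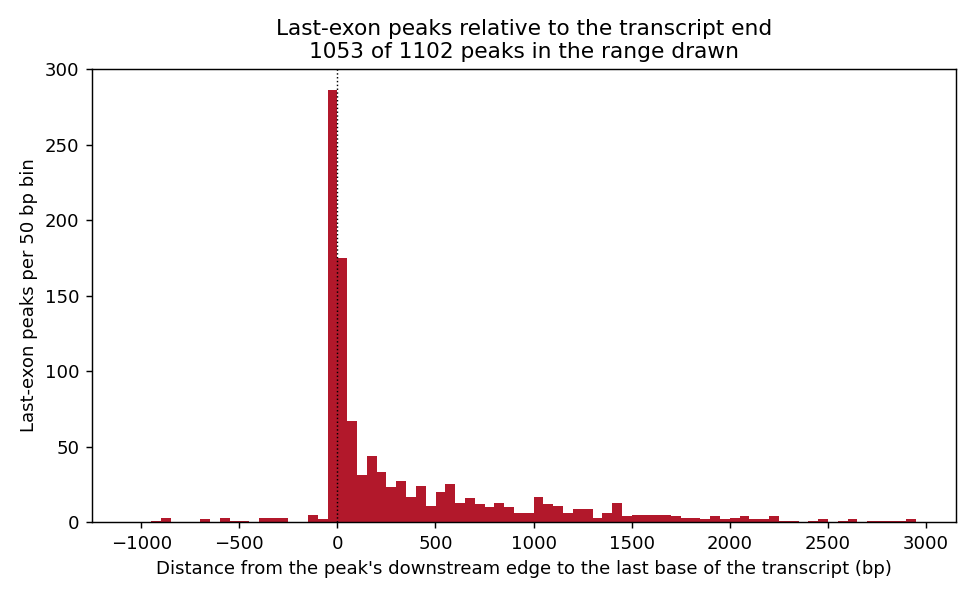
Number of last-exon peaks (vertical axis, per 50 bp bin) by the distance from the downstream edge of the peak to the last base of the listed transcript (bp), for the peaks whose exon is that of the listed transcript. Negative distances lie beyond the end, the dotted line marks the last base, and the tallest bin, just left of it, holds the 284 peaks that end exactly there.

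The edges followed a grid. Of the 587 distances from 1 to 1000 bp, 65.6% (61.7% to 69.3%) fell on a multiple of 50 bp or up to 3 bp below it, positions that make up 8% of such a grid. Peak edges are therefore known to steps of about 50 bp, and an edge at the last base of the annotation marks where the annotated transcript stops as well as where the peak does. The 62 peaks that passed the last base of their own transcript had a median width of 1937 bp and overhung by a median of 1193.5 bp. The other 1040 peaks had a median width of 251 bp.

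Among narrow peaks, the last exon held more than an equal share per exon. Of 4171 exon peaks of at most 1000 bp in transcripts with at least 3 exons, 25.6% (24.3% to 26.9%) were in the last exon, whereas 12.8% would be there if each exon of a transcript had the same share. In transcripts of 3 to 5 exons the share was 41.3% (38.3% to 44.3%) against 26.4%. It was 29.5% (26.8% to 32.2%) against 13.4% with 6 to 10 exons, 19.2% (16.9% to 21.6%) against 7.09% with 11 to 20, and 10.6% (8.76% to 12.7%) against 3.31% with 21 or more. First exons held 12.9% of the same narrow peaks. Among the 5786 wider exon peaks the order was turned, with 1.90% (1.58% to 2.29%) in the last exon against 8.81% for equal exons. Over all widths the last exon held 11.8% of 9957 exon peaks against 10.5%. The limit of 1000 bp kept 90.6% of last-exon peaks but 44.0% of first-exon and 34.0% of internal-exon peaks. The excess among narrow peaks therefore depends on that limit. Exon lengths were not used here, so a longer last exon and a higher density of peaks in it cannot be told apart.

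**Figure D3:**
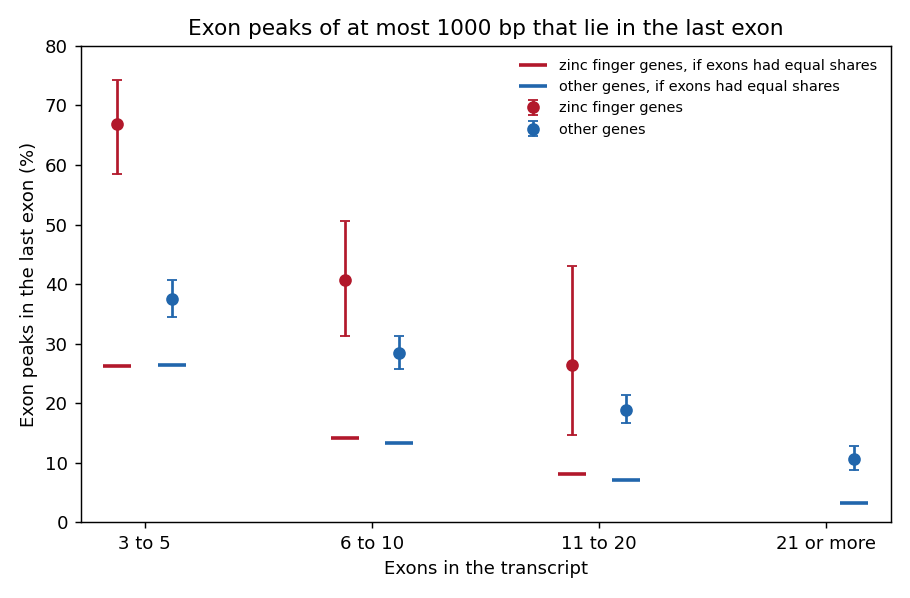
Share of exon peaks of at most 1000 bp that lie in the last exon (percent, points with 95% Wilson intervals) by the number of exons in the transcript, for zinc finger genes and other genes, with bars for the share if exons were equal. Zinc finger genes with 21 or more exons, with 1 such peak, are not drawn, and each drawn point lies above its bar, with 66.9% against 26.2% for zinc finger genes of 3 to 5 exons.

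Transcripts with very many exons also carried last-exon peaks. *MACF1*, a spectraplakin that links actin and microtubules, had a 201 bp peak in exon 95 of 95, ending 50 bp before the last base, and 16 of its 17 peaks lay elsewhere, 14 in internal and 2 in first exons. *BIRC6*, a giant ubiquitin ligase that inhibits apoptosis, had a 151 bp peak ending at the last base in exon 74 of 74, and 7 internal-exon peaks. *HMCN1*, an extracellular matrix hemicentin, had a 151 bp peak in exon 108 of 108. The longest was a gene without a symbol, ENSBGRG00000018119, on chromosome 29, with a 199 bp peak in exon 129 of 129.

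Several peaks could share 1 last exon. Of the 988 genes, 851 (86.1%) had 1 last-exon peak, 107 had 2, 17 had 3, 7 had 4, 5 had 5 and 1 had 7. Between neighbours in the same exon the median gap was 148 bp over 181 gaps, and 73 gaps (40.3%) measured 90 to 100 bp, so some neighbours are separated by no more than about 2 grid steps. Merging neighbours within 100 bp left 1102 peaks. The count of peaks per exon thus depends on the gap allowed by the peak caller.

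The gene with 7 was *ZNF292*, a large zinc finger transcription factor, and its 7 last-exon peaks were all the peaks it had. They lay in exon 8 of 8 (LU_Bosgru_v3.0, chr10:26582283-26589148, plus strand), the first 6915 bp before the last base at its upstream edge and the last a peak of 2140 bp ending 50 bp before the last base. Its input FPKM were 3.63, 4.26 and 4.81 in TES5, TES6 and TES7.

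There were 5 genes with 5 last-exon peaks. *DSP*, desmoplakin of the desmosome, had 5 of its 10 peaks in exon 27 of 27, at 649 to 3642 bp before the end (FPKM 3.06, 1.64 and 3.16). *SYNM*, the intermediate filament protein synemin, had 5 of 7 in exon 6 of 6 (2.08, 2.82 and 2.41). *PRX*, the myelin protein periaxin, had all 5 in exon 3 of 3 of a transcript other than the listed one, so no distance is given (1.13, 1.05 and 0.813). *FRMPD3*, with a FERM and a PDZ domain, had all 5 in exon 15 of 15, the last ending at the last base (0.898, 1.36 and 1.05). *USF3*, a helix-loop-helix factor, had 5 of 9 in exon 5 of 5 (1.03, 1.73 and 1.66). All 5 genes were at low FPKM, below 4 in each animal.

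Among those with 4, *DISP1*, which releases Hedgehog ligands from cells, had all 4 peaks in exon 8 of 8 at FPKM of 1.81, 2.54 and 1.52. *WFS1*, an endoplasmic reticulum membrane protein, had 4 of 5 at FPKM of 5.35, 6.23 and 4.50. *PLCH1*, a phospholipase C, had 4 of 5 at 2.02, 1.42 and 2.07, and *KIAA2026* 4 of 7 at 7.81, 7.91 and 7.89. In *KIAA2026* these 4 peaks lay close together over the 3579 bp before the end.

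**Figure D4:**
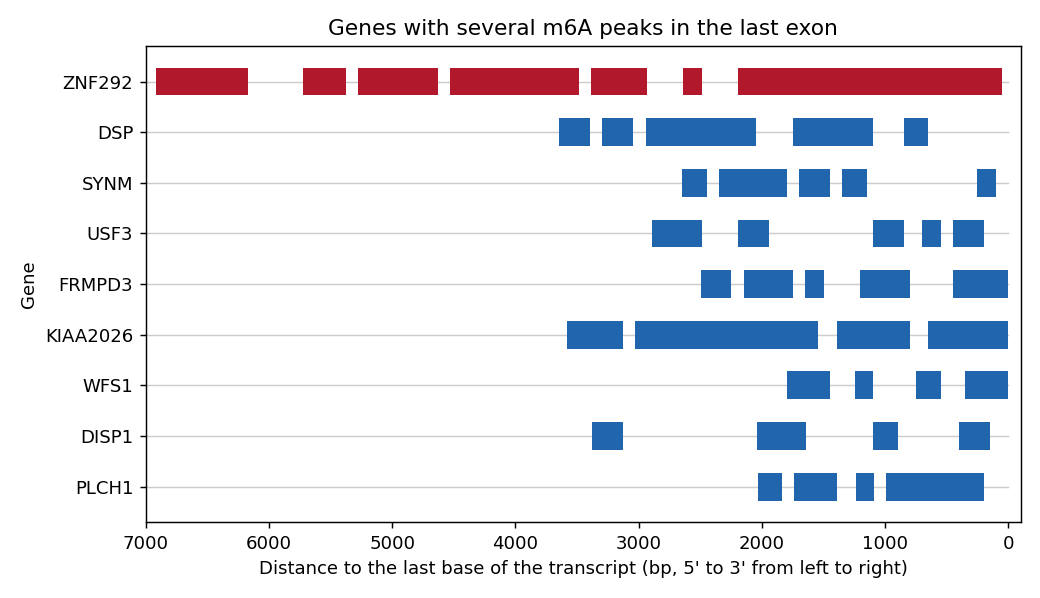
Position of each last-exon peak (bars) in the genes with the most of them, as distance to the last base of the listed transcript (bp, 5' to 3' from left to right); *PRX* is not drawn because its exon is not that of the listed transcript. *ZNF292* has 7 peaks over 6915 bp, and the others have 4 or 5.

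Over all 135 genes with an FPKM and at least 2 last-exon peaks, the median FPKM was 2.30, 2.54 and 2.41 in TES5, TES6 and TES7. In the 833 genes with 1 it was 5.64, 5.50 and 5.41. The difference of medians on the log2(FPKM + 1) scale was −1.01, −0.87 and −0.91, with a mean of −0.93 ± 0.068 (SD, n = 3), and had the same sign in 3 of 3 animals. An exact sign-flip test over the 3 animals gave a two-sided p of 0.25, the smallest it can give with 3.

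Most genes with a last-exon peak also had peaks elsewhere. No other peak was listed for 387 of 988 genes (39.2%, 36.2% to 42.3%), against 36.9% of the 1119 genes with a first-exon peak, a difference of 2.26 points whose interval runs from −1.89 to 6.41. Internal-exon peaks were found in 376 of the 988 genes (38.1%), first-exon peaks in 113 (11.4%) and peaks of the 5' UTR class in 87 (8.81%). A peak of the 3' UTR class was found in 100 (10.1%). Among genes with a first-exon peak 23.7% had one (last minus first exon −13.6 points, interval −16.7 to −10.4), and among genes with an internal-exon peak 20.1% (last minus internal exon −9.97 points, interval −12.1 to −7.65). Both labels compete for the same end of the transcript, and whether a gene has an annotated 3' UTR was not read here.

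The genes with a last-exon peak were expressed at a lower median level than the other genes with a peak. FPKM were listed for 968 of the 988, with a median of 4.96, 4.98 and 4.96 in TES5, TES6 and TES7, against 7.58, 7.74 and 7.67 in the 7807 other genes with a peak. The difference of medians on the log2(FPKM + 1) scale was −0.53, −0.55 and −0.54, with a mean of −0.54 ± 0.010 (SD, n = 3). It was below 0 in 3 of 3 animals, and the exact sign-flip test gave a two-sided p of 0.25, again the smallest it can give. Each of the 3 animals had an FPKM of 1 or more for 811 genes (83.8%, 81.3% to 86.0%), 3.55 points below the 87.3% of the other genes with a peak (difference −3.55, interval −6.11 to −1.24). Of all 20953 genes in the table, 54.4% reached it. Listed at 0 in all 3 animals were 3 of the 968 genes with a last-exon peak and 79 of the 7807 other genes with a peak.

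When genes with an exon peak were split into 5 groups of equal size by mean FPKM, the last-exon share of exon peaks went from 19.0% (17.3% to 20.9%) in the lowest group through 14.1%, 11.3% and 7.90% to 7.01% (5.90% to 8.30%) in the highest. The median width of exon peaks moved with it, from 432 bp in the lowest group to 2192 bp in the highest. Among peaks of at most 1000 bp the share went from 29.3% (26.7% to 31.9%) to 19.8% (16.8% to 23.3%). How far the width of the peaks accounts for the fall was not tested.

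At the upper end of expression, *GLUL*, glutamine synthetase, had the highest FPKM of any gene with a last-exon peak, 138, 123 and 127 in TES5, TES6 and TES7. Its only peak was 193 bp wide in exon 7 of 7 and ended 48 bp before the last base. *MAGEA10*, of the X-linked MAGE family of cancer-testis antigens, followed with 136, 132 and 100, and *DEF8* with 120, 132 and 106. These 3 genes overlap between animals, and their order is not resolved.

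The next highest genes included several that act on proteins or sugars in the cell. *MLEC*, a carbohydrate-binding protein of the endoplasmic reticulum, stood at 96.5, 110 and 109, with its only peak, of 195 bp, ending 49 bp before the last base. *DNAJA2*, a co-chaperone of HSP70, stood at 102, 106 and 98.4, with a 147 bp peak ending at the last base. *ERP29*, a chaperone of the endoplasmic reticulum, stood at 84.3, 73.8 and 74.6, and *CHPF*, which builds chondroitin chains, at 76.1, 77.4 and 78.4. *EIF5*, a translation initiation factor, stood at 73.4, 80.3 and 81.6, and its 516 bp peak ran 360 bp past the annotated end. At *POLDIP2* (102, 89.8 and 87.6) the exon belonged to another gene, ENSBGRG00000012115, so that peak cannot be given to *POLDIP2* from the list alone.

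Expression of genes with a last-exon peak was in general close between the animals, with a median coefficient of variation of 12.3% over the 3. Among those with a mean FPKM of at least 10, it was largest for *RABEPK*, a partner of the endosomal RAB9, with 17.1, 12.8 and 3.79 in TES5, TES6 and TES7 (mean 11.2 ± 6.79, SD, n = 3). *C3orf62* (26.2, 20.1 and 12.2), *REEP2* (25.9, 18.5 and 13.4) and *CDCA2*, a phosphatase partner on mitotic chromosomes (17.0, 11.8 and 9.13), were likewise lowest in TES7. *ACOT13*, a mitochondrial thioesterase, was lowest in TES6 (16.7, 7.97 and 14.0). *CDCA2* had 2 last-exon peaks, of 698 and 150 bp, and the other genes named in this paragraph 1 each.

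**Figure D5:**
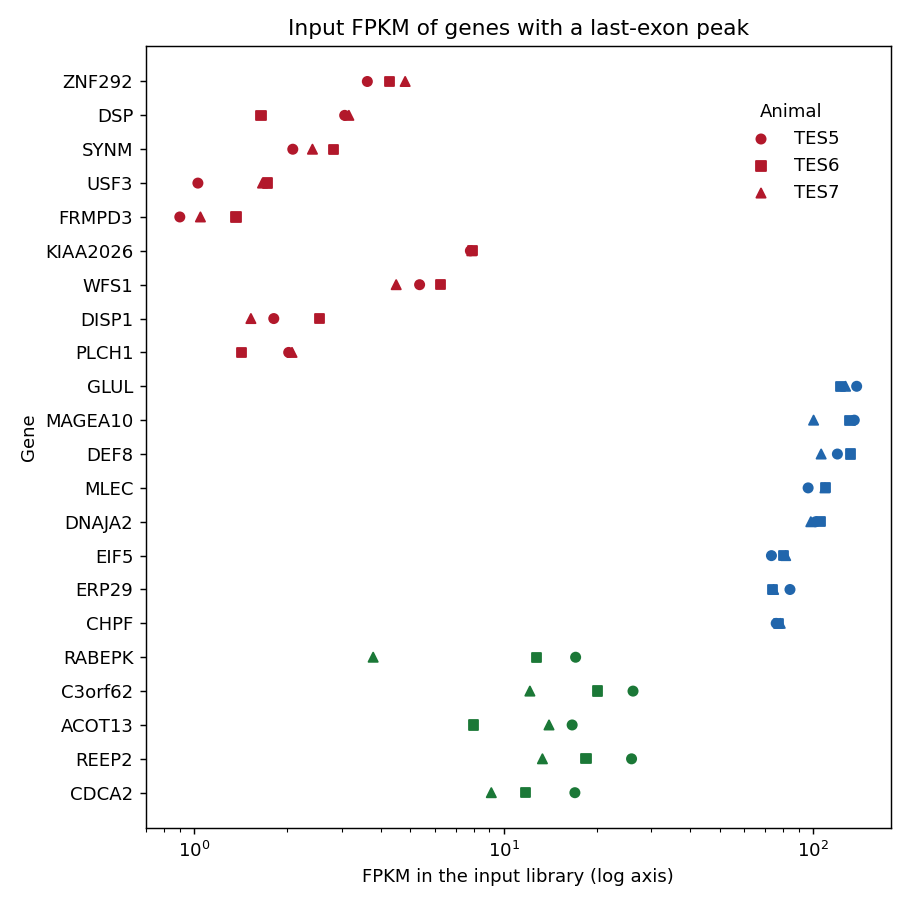
Input FPKM (log axis) in TES5, TES6 and TES7 for the genes with the most last-exon peaks (red), those with the highest mean FPKM (blue) and those with the largest variation between animals (green), where the exon of each peak is that of the listed transcript. Genes with many last-exon peaks lie between 0.898 and 7.91, and the most expressed genes between 73.4 and 138.

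Zinc finger genes were the largest of the gene groups looked at. Of 324 genes with a peak whose symbol marks a zinc finger family (ZNF, ZBTB, ZFP, ZSCAN, ZKSCAN and similar), 104 (32.1%) had a last-exon peak, where 11.0% of all 8775 genes with a peak and a symbol did. They made up 10.7% of the genes with a last-exon peak (104 of 968), 43 of 1076 of those with a first-exon peak, 3.16% with an internal-exon peak and 2.29% with a 3' UTR class peak. By family the counts were 88 of 247 ZNF genes, 4 of 10 ZSCAN, 4 of 15 ZFP, 2 of 12 ZKSCAN and 5 of 34 ZBTB genes. Members of this family resemble each other in sequence, and reads of near-identical copies may be shared between them, so counts for single genes are uncertain. They are also not independent, as the 104 genes carry 91 symbols and some therefore share a symbol. Over all last-exon genes, zinc finger or not, 14 symbols are carried by more than 1 identifier (42 genes).

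These 104 genes held 153 last-exon peaks, and 36 of them had at least 2. The median exon number was 4 in the transcripts of their peaks and 7 in those of the other last-exon peaks. With exon number held alike, in transcripts of 3 to 5 exons, 89 of 133 narrow exon peaks of zinc finger genes were in the last exon (66.9%), against 346 of 921 in other genes (37.6%), and equal exons would give 26.2% and 26.5%. With 6 to 10 exons it was 39 of 96 (40.6%) against 285 of 1004 (28.4%). With 11 to 20 exons it was 9 of 34 (26.5%, 14.6% to 43.1%) against 200 of 1057 (18.9%, 16.7% to 21.4%). Among these narrow peaks those shares cannot be told apart. With 21 or more it was 0 of 1 against 98 of 925 (10.6%). Over all widths, with 11 to 20 exons, it was 10 of 64 (15.6%) against 228 of 3088 (7.38%). That difference was 8.24 points (1.26 to 19.1). It was 22.9 points (15.791 to 29.996) with 3 to 5 exons and 12.9 (6.26 to 20.6) with 6 to 10. With 21 or more it was −3.81 points (−4.57 to 28.6), from 0 of 8 zinc finger peaks.

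Their peaks lay farther from the end. In zinc finger genes the median distance to the last base was 245 bp (quartiles 49 and 829 bp, 141 peaks), against 82 bp (0 and 547 bp, 961 peaks) in other genes, and 28 of 141 (19.9%) were at or beyond the last base against 318 of 961 (33.1%). The median FPKM of the zinc finger genes with a last-exon peak was 3.29, 3.63 and 3.40 in TES5, TES6 and TES7. It was 5.58, 6.17 and 5.59 in the 220 zinc finger genes with other peaks only, and 5.34, 5.26 and 5.19 in the other genes with a last-exon peak.

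The zinc finger genes with a last-exon peak and the highest expression were *ZNF579* (25.3, 25.02 and 27.2 in TES5, TES6 and TES7), *ZNF512* (20.8, 19.4 and 21.7), *ZNF384* (17.0, 15.1 and 17.4), *ZNF436* (15.3, 15.3 and 18.3) and *ZNF787* (14.7, 16.4 and 17.1). *ZNF579* stood above the others in each animal, and the ranges of *ZNF384*, *ZNF436* and *ZNF787* overlapped. *ZNF436* carried a 1228 bp peak that ended at the last base of exon 3 of 3 and no other. *ZNF512* and *ZNF384* each had a narrow one, of 244 and 150 bp, that ended at the last base. *ZNFX1*, which despite its name is an RNA helicase-like protein and no C2H2 factor, had 3 of its 5 peaks in exon 12 of 12. *ZNF583*, *ZBTB11*, *ZNF696* and *ZNF148*, with 1 each, had mean FPKM from 10.9 to 14.7.

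Chromosome 20 held 149 of the 1176 last-exon peaks (12.7%) and 969 of all peaks (5.99%). Last-exon peaks were 15.4% of its peaks (13.2% to 17.8%), where the other assembled chromosomes ran from 3.72% to 8.92%. Of the 149, 74 were on 48 zinc finger genes. Without zinc finger genes the share on chromosome 20 was 10.1% (75 of 745).

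Of the genes that write, erase or read m6A, 2 of 17 with a peak had one in the last exon, both of them readers. *YTHDF2*, which sends methylated RNA to decay, had a 734 bp peak that ended at the last base of exon 4 of 4 (FPKM 14.7, 12.9 and 14.0). It was the only peak of that identifier. The listed transcript covers only chr2:13070805-13073167, and whether this short model holds the whole gene was not tested. *IGF2BP1*, a reader that stabilises its targets, had a peak of 3222 bp in exon 14 of 14 that ran 3017 bp past the annotated end (3.02, 4.25 and 4.22). At 2 of 17 (11.8%) the list was near the 11.0% of all genes with a peak and a symbol.

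Symbols are known here only for genes with a peak, so the tissue could be checked on few markers. The Sertoli cell genes *SOX9* (26.7, 27.5 and 28.4), *WT1* (24.0, 33.3 and 31.5) and *DHH* (20.1, 20.7 and 16.2), the Leydig cell gene *STAR* (100, 108 and 112) and the peritubular gene *ACTA2* (226, 254 and 232) were expressed in each animal. *FSHR*, also a Sertoli cell gene, was lower (6.19, 9.05 and 7.96). Not every marker with a peak is named here. The median of the mean FPKM was 19.0 over the 5 Sertoli cell genes with a peak and 58.5 over the 4 peritubular genes, so *ACTA2* stood well above its list. Among 11 spermatocyte genes the levels ran from *SYCP3* (24.4, 18.0 and 19.8) down to *DMC1* ENSBGRG00000002664 (0.560, 0.635 and 0.446) and *SYCP2* ENSBGRG00000024487, which is listed at 0 in all 3 animals, although other identifiers of both symbols were higher. Among 4 spermatogonial genes they ran from *KIT* (8.64, 9.23 and 12.2) down to *GFRA1* (0.572, 0.936 and 0.863). Over these lists the median of the mean FPKM was 8.46 for the 4 spermatogonial genes and 4.36 for the 11 spermatocyte genes. *GFRA1* thus stood well below its list and *SYCP3* well above its own. None of the 9 spermatid symbols looked for carries a peak, so their level was not read. Markers of macrophages (*CD163*, 3.64, 4.50 and 6.61) and endothelium (*PECAM1*, 2.98, 4.12 and 2.71) were present at lower levels. The medians of the mean FPKM were 4.54 over 3 macrophage genes and 2.27 over 3 endothelial genes with a peak. In whole tissue, fewer cells of a type and less RNA per cell cannot be told apart.

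Of the Sertoli cell markers, 2 of 5 with a peak had one in the last exon. Of all genes with a peak and a symbol 11.0% had one, and the marker lists hold only 1 to 11 genes with a peak each. *FSHR*, the receptor through which follicle-stimulating hormone acts on Sertoli cells, had both of its peaks there, 300 and 299 bp wide in exon 10 of 10, the first ending at the last base (FPKM 6.19, 9.05 and 7.96). *SOX9*, the factor that directs Sertoli cell fate, had a 349 bp peak in exon 3 of 3, 3234 bp before the end, and 2 peaks elsewhere. Among endothelial markers it was 1 of 3, *CDH5*, the cadherin of endothelial junctions (2.13, 2.41 and 2.25). None was found among 1 Leydig, 4 peritubular, 4 spermatogonial, 11 spermatocyte and 3 macrophage marker genes with a peak.

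Of 20 meiosis and recombination genes with a peak, 0 had it in the last exon, against 11.0% of all genes with a peak and a symbol, and the interval of 0 of 20 reaches 16.1%. Of 11 piRNA pathway genes 2 did. *ASZ1*, a germ granule protein, had a 150 bp peak ending at the last base of exon 13 of 13 (FPKM 8.26, 9.79 and 6.76) and 2 other peaks. *HENMT1*, which methylates the 3' end of piRNAs, had its only peak, of 445 bp, in exon 7 of 7 (5.33, 5.70 and 4.69). Of 17 genes with a peak that the study names, 1 did, *NFE2L3*, a basic leucine zipper factor (13.4, 14.0 and 13.7), with 3 further peaks.

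Among Wnt, TGF-beta and Notch genes, 5 of 39 with a peak (12.8%) had a last-exon peak, near the 11.0% of all genes with a peak and a symbol, and *NOTCH1* and *NOTCH2*, receptors of the Notch pathway, were among them. *NOTCH1* had 2 of its 3 peaks in exon 36 of 36, within 600 bp of the end (6.75, 12.6 and 10.9), and *NOTCH2* 2 of 4 in exon 36 of 36, within 647 bp (11.3, 17.2 and 19.7). *SMAD7*, an inhibitor of TGF-beta signalling, had a 490 bp peak ending at the last base (4.61, 6.87 and 5.41). *FZD6*, a Wnt receptor, and *HES1*, a Notch target, were the others.

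Of 58 chromatin enzyme genes with a peak, 8 had a last-exon peak (13.8%), near the 11.0% of all genes with a peak and a symbol. They include *ASXL1*, *ASXL2* and *ASXL3*, partners of the histone deubiquitinase BAP1. *ASXL1* had an 893 bp peak ending 41 bp before the last base (FPKM 21.9, 27.3 and 26.6), and *ASXL2* one of 1647 bp ending at the last base (11.4, 13.5 and 13.2), both in exon 14 of 14. *SETD5*, a SET domain protein, had a 550 bp peak at the end of exon 23 of 23 (15.7, 20.6 and 20.9). The others were *CHD6*, *CREBBP*, *KDM4C* and *TET3*.

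Of 183 ubiquitin ligase genes, 28 (15.3%, 10.8% to 21.2%) had a last-exon peak, an interval that holds the 11.0% of all genes with a peak and a symbol. The highest in FPKM was the F-box gene *FBXL19* (47.5, 42.5 and 44.5). *KBTBD2*, a cullin adaptor, had both of its peaks in exon 4 of 4 (27.0, 35.3 and 33.1), and *RNF19A* a 596 bp peak that ran 482 bp past the end (25.9, 27.4 and 29.4). The list includes 9 TRIM genes, among them *TRIM71* and *TRIM25*. In the developmental transcription factor families it was 13 of 95 (13.7%), also near 11.0%, with *FOXM1*, a factor of cell division (8.65, 6.84 and 7.31), and *ETV2* (8.46, 5.12 and 6.56), each with a narrow peak that ended at the last base.

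Of 139 genes with a solute carrier symbol, 19 (13.7%, 8.93% to 20.4%) had a last-exon peak, against 11.0% of all genes with a peak and a symbol. The highest in FPKM was *SLC9A3R1*, a scaffold protein and no transporter (33.1, 27.4 and 26.7). At *SLC45A4* and *SLC25A12* the exon was not that of the listed transcript, and at *SLC25A12* it belonged to another gene. Of 18 apoptosis genes 3 had one, with an interval of 5.84% to 39.2%: *BIRC6*, *MDM4*, an inhibitor of p53, whose 3212 bp peak ran 2472 bp past the end (7.21, 8.14 and 8.91), and *BIRC3*, where the exon again was not that of the listed transcript.

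The other lists had counts from 0 to 2, to be read against the 11.0% of all genes with a peak and a symbol. Of 46 genes of the MAP kinase cascade and its phosphatases, 1 had a last-exon peak (2.17%, 0.385% to 11.3%), *MAPK6*, an atypical MAP kinase, with a 1035 bp peak ending 99 bp before the last base (28.7, 27.8 and 23.9). Of 89 dynein, kinesin and cilia genes 2 did (2.25%, 0.618% to 7.83%), *CFAP161* (2.63, 1.56 and 0.886) and *DYNC1H1* (4.32, 1.35 and 0.699). The identifier listed as *DYNC1H1* has only 3 exons over chr17:72469142-72472630, so it is a fragment of that long gene, and its FPKM differed most between the animals of all genes named here, with TES5 highest. None of 15 cytosolic ribosomal protein genes and none of 19 mitochondrial respiration genes had one. By the 95% Wilson interval, 0 of 19 allows a share of up to 16.8% and 0 of 15 up to 20.4%, so both include 11.0%.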

How the data were processed

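Testis IP and input libraries of 3 cattle-yaks were analysed. The peak members and the gene lists were chosen with earlier results of these data known. The authors trimmed reads (Trimmomatic), removed ribosomal RNA reads (SortMeRNA) and aligned the remainder (HISAT2, version 2.0.4 in the submitters' processing notes). Peaks were called by the authors with MeTDiff from IP against input and annotated with ChIPseeker on LU_Bosgru_v3.0 (Ensembl release 99). The deposited FPKM values cover 20953 genes in the 3 input libraries, and the program that made them is not given in the sources used here. FPKM keep no read numbers, and depth is not in the files used, so no detection limit is given for a gene.

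Peak widths, exon labels and distances to the listed transcript's last base were counted from the deposited list. Shares have Wilson 95% intervals and their differences Newcombe intervals, both for counting error only, as peaks and genes are not replicates. Shares of gene lists are descriptions without a test. Expression was compared per animal on log2(FPKM + 1) with an exact sign-flip permutation test over animals, whose smallest two-sided p is 0.25. Zinc finger genes were found by 9 symbol starts, and 23 gene lists were used. Genes named are the 10 with the most last-exon peaks, the 10 with the highest mean FPKM, the 5 with the largest variation between animals at a mean FPKM of at least 10, the transcripts with the most exons, the widest peaks, the listed members of marker, m6A, meiosis, piRNA and study lists, the 10 highest zinc finger genes and up to 3 of each other list; further members of small lists were named to complete a count, and *TRIM71* and *TRIM25* were chosen after their values were seen. Results for some genes of the rule and lists are not reported here. Scripts (Python 3.11.15 with pandas 2.3.3, numpy 2.4.6, matplotlib 3.10.9 and SciPy 1.17.1) were tested on simulated data. The alternatives tried were other limits on width, exons and FPKM, merged peaks, the listed transcript only, genes counted by symbol, another pseudocount, rescaled libraries and each animal left out. No genome sequence or annotation of this build was used here, so no sequence, motif, stop codon or exon length was analysed.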

Additional observations from a re-analysis of the deposited data

How the results depend on the processing

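Of 43 alternative values for the counts, shares, distances and expression differences, 31 were taken as the same, 12 moved, and none reversed. A share or distance was the same within its interval, and a count within 1.5 times. The expression difference was judged by its sign alone. It was −0.62 with a pseudocount of 0.1 and −0.49 in genes that reached an FPKM of 1 in each animal. Both lay farther from the reported −0.54 ± 0.010 (SD, n = 3) than that SD. The number of last-exon peaks ran from 818 (at least 5 exons) to 1580 (at least 2 exons). With peaks merged within 100 bp, the share of at most 1000 bp was 88.4%, the median distance to the end 98.5 bp, and the share of genes with no other peak 45.0%. Limited to genes that reached an FPKM of 1 in each animal, the median distance was 68.5 bp and the share that reached the end 33.8%. With peaks of at most 1000 bp, the share that reached the end was 27.1% and the share of genes with no other peak 57.3%. Measured from the middle of the peak the median distance was 398 bp, and counting peaks within 100 bp of the last base as reaching it gave 50.3%. Counted by symbol, 33.0% of genes had no other peak. With at least 5 exons, zinc finger genes made up 7.68%. With a minimum FPKM of 0.5, 92.9% of genes with a last-exon peak passed. With 1 animal left out, the share with FPKM of at least 1 in the others ran from 84.7% to 85.4%, and the difference in median log2 expression from −0.54 to −0.53. The mean FPKM of the 68 named genes moved by less than 1 SD under each of 272 alternatives. With 3 animals, leaving 1 out cannot move a mean by 1 SD, so for those alternatives the outcome was fixed. Only the rescaled libraries could have given a move. The cause of these shifts was not tested, beyond that fewer or merged peaks enter by construction. The motif share that had been planned needs a genome not used here and was not run. No paired analysis was possible because peaks came as 1 list over the animals and FPKM exist here for inputs alone. Without a score or a value per animal, no peak could be checked for its strength or its presence in each animal, and 3 animals are too few to test for an outlying one.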

Other observations

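By the functional terms deposited with the peaks, DNA-binding transcription factor activity specific to RNA polymerase II was listed for 103 of 864 annotated genes with a last-exon peak (11.9%) and for 344 of 7080 other genes with a peak (4.86%), terms chosen after their values were seen. Of the 103, 59 were zinc finger genes, and without zinc finger genes the counts were 44 of 763 (5.77%) and 229 of 6879 (3.33%). Integral components of the plasma membrane were 44 of 864 (5.09%) against 184 of 7080 (2.60%), with no zinc finger gene among the 44. RNA binding was listed for 38 of 864 (4.40%) against 432 of 7080 (6.10%), and ATP binding for 41 (4.75%) against 493 (6.96%). Without zinc finger genes RNA binding was 37 of 763 (4.85%, 3.54% to 6.61%) against 425 of 6879 (6.18%, 5.63% to 6.77%), and ATP binding 41 of 763 (5.37%, 3.99% to 7.21%) against 491 of 6879 (7.14%, 6.55% to 7.77%), and in both the intervals overlap.

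The pathway named for herpes simplex virus 1 infection, which in this resource holds many KRAB zinc finger genes, was listed for 88 of 294 genes with a last-exon peak and a pathway (29.9%), 48 of them zinc finger genes, and for 574 of 2253 other genes (25.5%). Without zinc finger genes it was 40 of 242 (16.5%, 12.4% to 21.7%) against 525 of 2192 (24.0%, 22.2% to 25.8%).

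The X chromosome held 33 last-exon peaks among 534 peaks (6.18%) and the Y chromosome 5 among 96 (5.21%), against 7.27% of all peaks. Both lie within the range of the assembled chromosomes other than 20, 3.72% to 8.92%.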
